A study of Homo sapiens with 21 samples.

Results

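BT-TR1 is a pool of trastuzumab-resistant cells derived from BT474, a human HER2-positive breast cancer cell line, and is set here against its untreated, antibody-sensitive parent. The comparison takes 6 of the 21 RNA-seq libraries of the study, the 3 labelled BT-TR1 and the 3 labelled untreated BT474, and covers every gene of the count table. Of 37355 genes, 17650 passed the filter on low counts and were tested. All cells were grown on 10 cm dishes in RPMI-1640 with serum, and BT-TR1 was held without antibody for 7 days before harvest, so that no library of this comparison was made in the presence of trastuzumab. A second trastuzumab-resistant pool, BT-TR2, and 2 pools resistant to trastuzumab with pertuzumab, BT-TPR1 and BT-TPR2, had the same BT474 background and the same 7 days without antibody, and were used only to ask where BT-TR1 differed from them. BT-TR1 is 1 pool, its 3 libraries are replicates of that pool, and whether these were separate cultures is not given in the labels. Each p therefore measured the spread between libraries and not between separately derived resistant populations.

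BT474 is a luminal breast cancer line that carries extra copies of ERBB2, the gene of the receptor tyrosine kinase HER2, and also expresses the estrogen and progesterone receptors. Trastuzumab is an antibody that binds the extracellular part of HER2, lowers signalling through PI3-kinase and AKT and through the ERK pathway, and can recruit immune cells. HER2 forms pairs with EGFR, HER3 and HER4, and other receptor kinases, such as the IGF1 receptor, feed the same downstream pathways.

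The BT-TR1 libraries were shallower than those of the parent, with 7939270 to 13432287 counts against 19516112 to 21746391. They also differed in base composition. For each library, the deviation of log2 expression from the mean of all 21 libraries was correlated across genes with the GC content of the gene's transcript, and r was -0.305, -0.582 and -0.672 in BT-TR1 replicates 1, 2 and 3 against 0.592, -0.0767 and 0.179 in BT474. Across 17554 genes, which are not independent replicates, the log2 fold change of BT-TR1 against BT474 had r = -0.478 with GC content. The median change ran from 0.34 in the tenth of genes with the least GC to -1.15 in the tenth with the most. After each library was corrected for GC content, r was -0.0164 and the medians of these GC classes lay between -0.07 and 0.10. A gene is therefore said here to have risen or fallen only where it passed edgeR's quasi-likelihood test (adjusted p under 0.05) in the same direction both without and with this correction. Values are log2 fold changes ± standard error without the correction, and the corrected value is added where it matters. Levels are in CPM on TMM-scaled libraries (read counts made comparable across depths). Strandedness of the counting was not given in the sources used here, so reads of BNIP3L, CCNA2, CCND1, CRELD2, FGFR1, FOXA1, FTH1, HK2, HSPD1, LOX, LSS, PIK3CA, POLR2L, SLC2A1, STARD4, TAPBPL and YPEL3 cannot be told apart from those of a gene on the other strand with which each shares exon sequence. Mitochondrially encoded genes took 18.2% to 24.5% of counts in BT474 and 19.4% to 20.9% in BT-TR1.

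**Figure D1:**
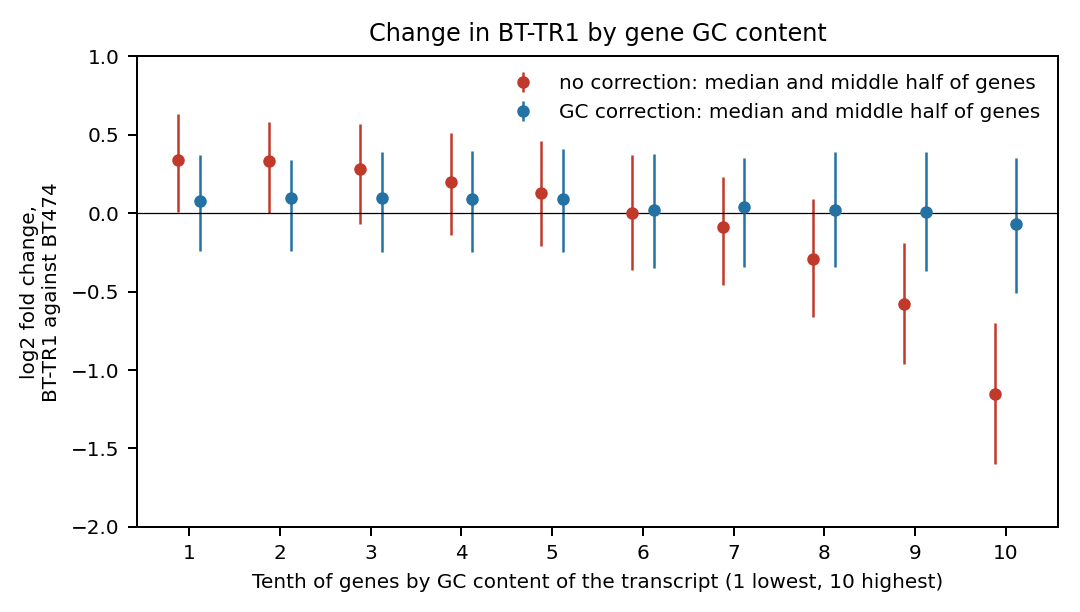
Log2 fold change of BT-TR1 against untreated BT474 for 10 equal classes of genes by transcript GC content, from the lowest (1) to the highest (10). Points are medians and bars run from the lower to the upper quartile, in red without and in blue with the GC correction. The uncorrected medians run from 0.34 down to -1.15, and the corrected ones stay between -0.07 and 0.10.

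All 12 luminal epithelial markers were detected above 1 CPM in both groups, and their summed level was 12152 to 16752 CPM in BT474 and 8589 to 11288 CPM in BT-TR1. The largest part of these sums was ERBB2, at 6673 to 10347 CPM in BT474 and 4167 to 6503 CPM in BT-TR1, whose change did not pass. Of the 12, 4 fell (ESR1, PGR, GATA3 and FOXA1) and none rose. These sums are not corrected for GC content, and without the correction 6 fell. With it alone 4 rose and 4 fell, and KRT19 (-0.59 to 0.31) and SPDEF (-0.80 to 0.41) were called in opposite directions in the 2 fits. Markers of other cell types were low. The leukocyte list summed to 3.68 to 4.55 CPM in BT474, most of it from NCAM1, and 2.15 to 2.24 CPM in BT-TR1. PTPRC, the pan-leukocyte marker CD45, was at 0 in all 6 libraries. The fibroblast list summed to 25.9 to 46.7 CPM and 16.4 to 26.6 CPM, nearly all of it from COL1A1, with DCN at 0 throughout. Endothelial markers summed to 12.8 to 23.5 CPM, most of it from VWF, and 7.57 to 9.86 CPM. Basal and myoepithelial markers summed to 18.4 to 20.2 CPM and 15.4 to 16.5 CPM. The endothelial cadherin gene CDH5 rose from 0.220, 0.0517 and 0.0907 CPM to 3.41, 2.26 and 2.11 CPM, while VWF and ESAM of the same list fell. In such bulk samples, fewer cells that express a gene and less RNA per cell cannot be told apart.

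In BT-TR1 against BT474, 7693 of the tested genes passed (43.6%), and 5448 (30.9%) did so in the same direction with the GC correction. Of the former, 3752 genes (21.3% of those tested) passed as higher and 3941 (22.3%) as lower without the GC correction. Of these, 3061 rises (17.3%) and 2387 falls (13.5%) also passed with it, and 81 genes passed in opposite directions in the 2 fits. With the correction alone, 58.3% of the calls were rises, against 48.8% without it. By the change without the correction, at least 2-fold changes were found among 712 of the genes that rose and 1356 of those that fell. On the same scale, a change of at least 4-fold was found for 153 and 350 genes. These sizes include the GC-linked shift, which enlarges falls of GC-rich genes. In the tenth with the most GC the median change was -1.15 without the correction and -0.07 with it. Lack of overlap between the 3 BT-TR1 and the 3 BT474 libraries was common among genes that passed. It held for at least 3958 of the 5448, a count that leaves out genes without a symbol or with a mean under 5 CPM. The share without overlap over all tested genes is not given here, so lack of overlap below is only a description. The number of falls without the correction depended on single libraries, at 2560 without BT474 replicate 1 and 2622 without BT-TR1 replicate 3. Percentages of members below are read against 17.3% and 13.5%. These shares depended on GC content in both directions, from 452 rises and 99 falls among the 1756 genes with the least GC to 25 rises and 405 falls among the 1756 with the most. For a list whose members differ in GC from the rest, the share of all genes of the same GC classes, averaged over its members, is therefore added where it bears on the reading.

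Among the 15 genes with the largest rises were several of secreted proteins. SCGB2A2, which encodes mammaglobin-A, a secretoglobin of breast epithelium (ENSG00000110484.6, chromosome 11, 62270155 to 62273156 on hg38), stood at 10.1, 11.5 and 8.89 CPM in BT474 and 942, 1084 and 1038 CPM in BT-TR1. Every BT-TR1 library was thus far above every parental one, a change of 6.65 ± 0.17 (adjusted p = 3.26e-15). SCGB1D2, the lipophilin B gene whose product pairs with mammaglobin, stood at 9.07, 6.31 and 7.30 CPM in BT474 and 61.6, 55.2 and 51.5 CPM in BT-TR1 (2.89 ± 0.18). AZGP1, the zinc-binding glycoprotein of apocrine secretions, stood at 1.98, 1.86 and 1.59 CPM in BT474 and 23.9, 25.2 and 23.6 CPM in BT-TR1 (3.74 ± 0.23). The groups did not overlap for any of the 3, which was required of the 15 genes. The bases just before the start of these genes are shown because the genes moved together, in the orientation of the gene and with the letters AAATAG in capitals. They are from RefSeq on GRCh38.p14, whose promoter table matched 23 of the 30 genes with the largest changes by symbol.
SCGB2A2, chr11:62269908-62270157, plus strand: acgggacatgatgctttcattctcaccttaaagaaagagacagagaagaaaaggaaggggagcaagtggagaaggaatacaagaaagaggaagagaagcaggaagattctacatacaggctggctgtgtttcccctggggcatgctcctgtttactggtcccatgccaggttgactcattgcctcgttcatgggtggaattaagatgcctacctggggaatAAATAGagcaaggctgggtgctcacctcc
SCGB1D2, chr11:62241989-62242238, plus strand: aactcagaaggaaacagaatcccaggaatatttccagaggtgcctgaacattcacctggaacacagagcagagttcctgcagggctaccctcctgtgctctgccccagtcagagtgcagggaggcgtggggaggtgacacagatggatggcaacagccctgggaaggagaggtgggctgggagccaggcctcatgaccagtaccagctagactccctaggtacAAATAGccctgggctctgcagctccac
AZGP1, chr7:99976032-99976281, minus strand: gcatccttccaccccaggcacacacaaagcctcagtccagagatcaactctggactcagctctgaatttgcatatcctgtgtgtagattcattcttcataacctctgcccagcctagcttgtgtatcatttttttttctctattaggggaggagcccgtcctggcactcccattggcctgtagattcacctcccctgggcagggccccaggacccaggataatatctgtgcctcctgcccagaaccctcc
In these 250 bases the letters TATAAA of the core promoter box were searched on both strands and found in none of the 3, while 10.7% of 35116 promoters hold them. The letters AGAACA, part of steroid response elements, were searched likewise and found in none, against 12.4% of promoters. AAATAG, chosen after the sequences were seen, begins 29 bases before the start of SCGB2A2 and 27 bases before that of SCGB1D2, and is held by 10.4% of promoters. The absence of a match says only that these letters are not in this window.

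Of 13 tested genes of the apocrine and milk secretory list, 6 rose and 4 fell. LCN2, the iron-siderophore binding protein lipocalin 2, went from 0, 0.103 and 0.0454 CPM to 2.00, 1.65 and 2.11 CPM. It had 3 counts in all of BT474 and 62 in BT-TR1, a ratio of 38.2 with an exact 95% counting interval of 12.5 to 190.0. The other 2 that rose, chosen after their values were seen like the 4 that follow, were SCGB2A1 (2.18) and APOD (2.38), a lipocalin of apocrine fluid. The 4 that fell were the trefoil factor genes TFF3 (-1.75) and TFF1 (-1.26), MFGE8 (-1.59) of milk fat globules and ANKRD30A (-0.98). Without BT-TR1 replicate 3 and without the GC correction the falls numbered 2.

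The other genes with the largest rises follow. SLPI, a protease inhibitor of mucosal fluids, stood at 2.75, 3.46 and 3.49 CPM in BT474 and 27.3, 24.9 and 26.8 CPM in BT-TR1 (3.02 ± 0.23). PLA2G2A, a secreted phospholipase, stood at 26.3, 21.8 and 22.7 CPM in BT474 and 172, 164 and 166 CPM in BT-TR1 (2.82 ± 0.15). CXCL17, a mucosal chemokine, stood at 10.4, 10.8 and 11.3 CPM in BT474 and 112, 126 and 113 CPM in BT-TR1 (3.43 ± 0.19). All 3 were higher in each BT-TR1 library than in any parental one, which the choice of the largest rises required. DKK1, a secreted inhibitor of WNT signalling, stood at 15.1, 15.8 and 12.4 CPM in BT474 and 129.7, 139 and 132 CPM in BT-TR1 (3.21 ± 0.15). GLYATL3, of the glycine N-acyltransferase family, had 3 counts in BT474 and 387 in BT-TR1, a ratio of 238 (exact 95% counting interval 80.9 to 1159.8). Its levels were 0, 0.103 and 0.0454 CPM and 11.7, 11.3 and 13.1 CPM. The squamous keratin gene KRT4 went from 0.769, 0.259 and 0.499 CPM to 13.9, 9.40 and 9.11 CPM (4.41 ± 0.30). NCMAP, a myelin-associated membrane protein gene, went from 0.494, 0.517 and 0.363 CPM to 13.1, 14.8 and 13.2 CPM (4.89 ± 0.34). HPGD, whose enzyme inactivates prostaglandins, went from 1.43, 1.65 and 0.953 CPM to 10.9, 9.05 and 14 CPM (3.07 ± 0.28). FAM101A rose by 3.59 ± 0.31 and LINC01468, a long noncoding RNA, by 5.06 ± 0.31. FAM101A shares exon sequence on its own strand with ZNF664 (462 CPM in BT474 and 625 CPM in BT-TR1), so its reads may not be told apart from those of that gene. In the limma fit of the transformed values the GLYATL3 change was 4.48, against 7.71 ± 0.48.

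The S100 family, small calcium-binding proteins, rose together: 9 of 12 tested members (75%) were higher and none was lower. S100P stood at 2.75, 1.65 and 1.68 CPM in BT474 and 51.5, 34.5 and 31.4 CPM in BT-TR1 (4.28 ± 0.27). S100A4, a cytoskeletal regulator of motile cells, stood at 4.23, 3.36 and 4.26 CPM in BT474 and 26.1, 17.7 and 14.9 CPM in BT-TR1 (2.32 ± 0.19). S100A8 and S100A9, the partners of calprotectin, were low in both groups. S100A8 went from 0.165, 0.207 and 0.227 CPM to 1.48, 1.65 and 1.45 CPM, and S100A9 from 0.110, 0.155 and 0.181 CPM to 0.964, 1.04 and 1.19 CPM. In the limma fit of the transformed values their changes were 1.45 and 1.24, against 2.89 ± 0.40 and 2.75 ± 0.41. No S100 gene differed from BT-TR2 in both fits, where 6.69% of all tested genes did.

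**Figure D2:**
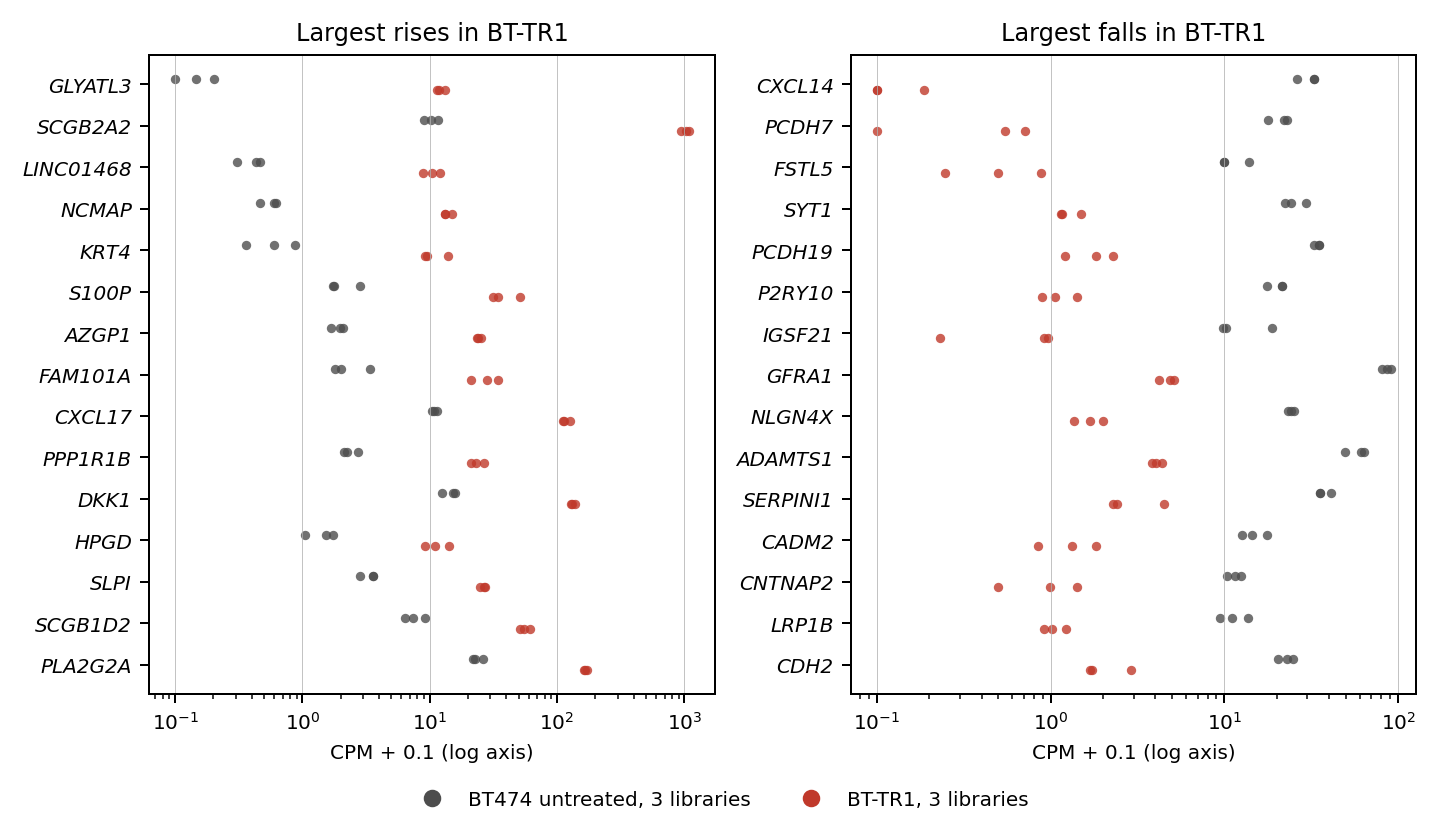
CPM + 0.1, on a log axis, of the 30 genes chosen by size of change in BT-TR1, 15 that rose and 15 that fell. Each point is 1 library, grey for BT474 and red for BT-TR1, and 0.1 was added so that libraries at 0 can be drawn. The 2 groups of 3 do not overlap for any of these genes, which the naming rule required.

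The 15 genes with the largest falls included a chemokine, a co-receptor and several adhesion genes. CXCL14, a chemokine of epithelia (ENSG00000145824.12, chromosome 5, 135570679 to 135579279), stood at 32.6, 32.5 and 26 CPM in BT474 and 0, 0.0870 and 0 CPM in BT-TR1. With 1795 counts in BT474 and 1 in BT-TR1, the ratio was 972 (exact 95% counting interval 174 to 38428). The limma value was -5.91, against -9.65 ± 0.52 in edgeR, and SLC25A48 shares exon sequence with CXCL14 on the other strand (4.75 CPM and 1.28 CPM). GFRA1, the co-receptor that presents GDNF to RET, stood at 90.5, 85.8 and 80.3 CPM in BT474 and 4.75, 4.09 and 5.02 CPM in BT-TR1 (-4.22 ± 0.15). ADAMTS1, a secreted metalloprotease, stood at 63.6, 61.1 and 49.3 CPM in BT474 and 3.71, 4.26 and 3.96 CPM in BT-TR1 (-3.87 ± 0.17). For both genes every BT-TR1 library was far below every parental one, and lack of overlap was required of the 15 genes.

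Protocadherins, cell adhesion proteins of the cadherin superfamily, fell in 5 of 8 tested members (62.5%), and none rose. PCDH7 stood at 21.8, 22.8 and 17.7 CPM in BT474 and 0.445, 0.609 and 0 CPM in BT-TR1 (-5.69 ± 0.31). PCDH19 stood at 34.8, 32.8 and 34.8 CPM in BT474 and 1.11, 2.18 and 1.72 CPM in BT-TR1 (-4.37 ± 0.20). PCDH10 and PCDH9 fell (-3.66 ± 0.36 and -2.43 ± 0.35), and the fifth, PCDHB10, chosen after its value was seen, changed by -0.80. Other genes among the 15 largest falls also encode adhesion proteins. CDH2, or N-cadherin, went from 20.3, 22.8 and 24.6 CPM to 1.63, 2.78 and 1.58 CPM (-3.48 ± 0.21). The synaptic adhesion gene NLGN4X went from 24.9, 24.1 and 23.1 CPM to 1.26, 1.91 and 1.58 CPM (-3.93 ± 0.16). CADM2 and CNTNAP2, which join nerve cells and their sheaths, changed by -3.66 ± 0.25 and -3.63 ± 0.27. LRP1B, of the LDL receptor family, changed by -3.55 ± 0.25, IGSF21, a synaptic immunoglobulin-domain gene, by -4.26 ± 0.42, the follistatin-like gene FSTL5 by -4.66 ± 0.33 and the receptor gene P2RY10 by -4.26 ± 0.23.

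Among vesicle release and synaptic genes, 5 of 22 fell (22.7%) and 3 rose (13.6%). SYT1, the calcium sensor of vesicle release, stood at 22.3, 29.3 and 24 CPM in BT474 and 1.04, 1.39 and 1.06 CPM in BT-TR1 (-4.42 ± 0.19). SERPINI1, the neuronal serine protease inhibitor neuroserpin, stood at 35.6, 40.9 and 35.3 CPM in BT474 and 2.30, 2.18 and 4.36 CPM in BT-TR1 (-3.72 ± 0.23). Against these, SYTL5, an effector of RAB27 on secretory vesicles, rose from 9.83, 13.4 and 13.5 CPM to 38.9, 53 and 53.7 CPM (1.98 ± 0.16). The list moved both ways. Without the GC correction its falls numbered 9, and 5 when BT-TR1 replicate 3 or BT474 replicate 1 was also left out. Ion channel genes fell in 11 of 25 (44%) and rose in 5 (20%). GABRE, a GABA receptor subunit, fell from 23.2, 15.7 and 13.8 CPM to 4.82, 4.18 and 3.30 CPM (-2.07 ± 0.25), and KCNH1, a voltage-gated potassium channel, from 1.43, 2.17 and 1.95 CPM to 0, 0.174 and 0.396 CPM. GABRP, the GABA receptor subunit found in breast, had no count in BT474 and 26 in BT-TR1, which makes it at least 16-fold higher by raw library totals, with a floor of 3 counts over the group.

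Of the HER receptors, EGFR was higher and ERBB4 lower. ERBB2 itself stood at 10347, 6673 and 7532 CPM in BT474 and 6503, 5663 and 4167 CPM in BT-TR1, a change of -0.59 ± 0.24 that did not pass (adjusted p = 0.053). The groups did not overlap, but with the GC correction the value was -0.08 (adjusted p = 0.659). Without that correction the call was close to the threshold and depended on the setting. It passed with the replicate number as a block (-0.58, adjusted p = 0.000709), with no filter (-0.60, 0.000126), with library size alone (-0.56, 0.0325) and with replicates 2 and 3 alone (-0.55, 0.0139). It also passed in DESeq2 (-0.58, 0.0369), in limma (-0.58, 0.0479), without BT-TR1 replicate 1 (-0.70, 0.0396) and without BT474 replicate 2 (-0.69, 0.0368). Without BT474 replicate 1 it was -0.36 (adjusted p = 0.276) and without BT-TR1 replicate 3 -0.40 (0.237). EGFR went from 46.6, 42.4 and 46.6 CPM to 67.6, 78.3 and 70.9 CPM (0.68 ± 0.13). ERBB4, which encodes HER4, went from 14, 17.5 and 13.7 CPM to 5.49, 7.13 and 4.88 CPM (-1.36 ± 0.16). ERBB3 overlapped between the groups, at 551, 522 and 526 CPM in BT474 and 522, 589 and 539 CPM in BT-TR1 (0.05 ± 0.12, adjusted p = 0.782). Among 7 tested ligands of these receptors, TGFA, an EGFR ligand, rose and 2 fell. TGFA stood at 11.7, 13.3 and 11.6 CPM in BT474 and 27.4, 29.1 and 30.1 CPM in BT-TR1 (1.24 ± 0.11). AREG, another EGFR ligand, fell from 12.2, 20 and 14.3 CPM to 6.16, 8.70 and 9.77 CPM (-0.93 ± 0.22). NRG3, a HER4 ligand, fell from 4.83, 4.29 and 4.95 CPM to 0.890, 0.522 and 1.06 CPM (-2.54 ± 0.25).

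Of 14 tested neighbours of ERBB2 on 17q12, 2 rose and 1 fell. PPP1R1B, which encodes the phosphatase inhibitor DARPP-32 and its short form t-DARPP, rose (3.38 ± 0.17), and each BT-TR1 library was above 20 CPM and each parental library below 3 CPM. Counts per gene do not separate its forms. MIEN1 rose (0.63 ± 0.11), and PGAP3 fell (-1.39 ± 0.32, -0.62 with the GC correction). Both share exon sequence with ERBB2 on the other strand, so their reads may not be told apart from those of ERBB2.

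Receptor tyrosine kinases other than the HER family fell in 12 of 20 tested genes (60%), and none rose. FGFR1, a fibroblast growth factor receptor, stood at 142, 95.4 and 96.5 CPM in BT474 and 29.4, 26.6 and 22.8 CPM in BT-TR1 (-2.07 ± 0.20). EPHA4, an ephrin receptor, stood at 35.4, 37.1 and 36.8 CPM in BT474 and 7.19, 9.74 and 10.2 CPM in BT-TR1 (-2.02 ± 0.15). MERTK, a receptor for GAS6, stood at 34.2, 36.6 and 30.5 CPM in BT474 and 8.97, 10.4 and 8.18 CPM in BT-TR1 (-1.87 ± 0.15). These 3 were lower in every BT-TR1 library. EPHA2 changed by -2.04 ± 0.27, or -1.28 with the GC correction. The median change of the 20 genes was -1.16, and -0.69 with the correction, beside -0.01 and 0.05 over all tested genes.

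In the IGF axis 8 of 11 tested genes fell (72.7%) and none rose. IGFBP5, a secreted IGF-binding protein (ENSG00000115461.4, chromosome 2, 216672105 to 216695525), stood at 12177, 12409 and 11798 CPM in BT474 and 1309, 1609.7 and 1349 CPM in BT-TR1. Each BT-TR1 library was thus well below any parental one (-3.09 ± 0.14, adjusted p = 2.33e-11). IGFBP3 went from 16.5, 18 and 14.4 CPM to 2.82, 2.87 and 2.51 CPM (-2.56 ± 0.16), and IGFBP2 from 212, 131 and 134 CPM to 36, 28.5 and 19.5 CPM (-2.49 ± 0.37). IGF1R, the receptor of the axis, went from 198, 150.0 and 144 CPM to 81.1, 83.7 and 73.9 CPM (-1.04 ± 0.16). The adaptor gene IRS2 changed by -1.42 ± 0.26, or -0.85 with the GC correction. The list's median change was -1.34, and -0.85 with the correction.

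Estrogen receptor targets fell in 16 of 29 tested genes (55.2%) and rose in 2 (6.90%). ESR1, the gene of estrogen receptor alpha, stood at 75.3, 81.1 and 88.1 CPM in BT474 and 38.3, 40.9 and 45.5 CPM in BT-TR1 (-0.97 ± 0.10). PGR, the progesterone receptor gene and a target of ESR1, stood at 451, 540.0 and 573 CPM in BT474 and 165, 213 and 199.9 CPM in BT-TR1 (-1.44 ± 0.17). RP11-788M5.4, on the other strand, shares exon sequence with PGR, at 1.58 CPM and 0.773 CPM. CXCL12, a chemokine, stood at 47.8, 51 and 53.1 CPM in BT474 and 11.1, 12.6 and 12 CPM in BT-TR1 (-2.09 ± 0.10). RET, the kinase that signals for GFRA1, stood at 282, 218 and 207 CPM in BT474 and 72.7, 70 and 64.8 CPM in BT-TR1 (-1.77 ± 0.19). STC2, a secreted glycoprotein, stood at 454, 408 and 355 CPM in BT474 and 116, 125 and 121 CPM in BT-TR1 (-1.75 ± 0.12). SUSD3, a membrane protein, changed by -2.0 ± 0.34, or -1.33 with the GC correction. No parental library overlapped a BT-TR1 library for these 6 genes, as was common among genes that passed. The 2 that rose, named after their values were seen, were SERPINA1 (0.94) and the chaperone gene FKBP4 (0.42).

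Of 20 steroid receptor and luminal factor genes, 7 fell (35%) and 2 rose (10%). GATA3, the luminal transcription factor, stood at 191, 163 and 180.2 CPM in BT474 and 60.4, 59.2 and 58.1 CPM in BT-TR1 (-1.59 ± 0.12). FOXA1, the pioneer factor of estrogen receptor binding, fell less, from 518, 486 and 478 CPM to 343, 381 and 414 CPM (-0.38 ± 0.09). The 2 that rose were ELF5, the factor of alveolar differentiation, from 13.2, 16.6 and 15.6 CPM to 30.8, 32.6 and 28.1 CPM (1.01 ± 0.11), and NR3C1, the glucocorticoid receptor gene, from 6.04, 8.74 and 7.89 CPM to 12.3, 17.1 and 17 CPM (1.02 ± 0.18). Without the GC correction the falls numbered 9, and 5 when BT-TR1 replicate 2 was also left out.

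**Figure D3:**
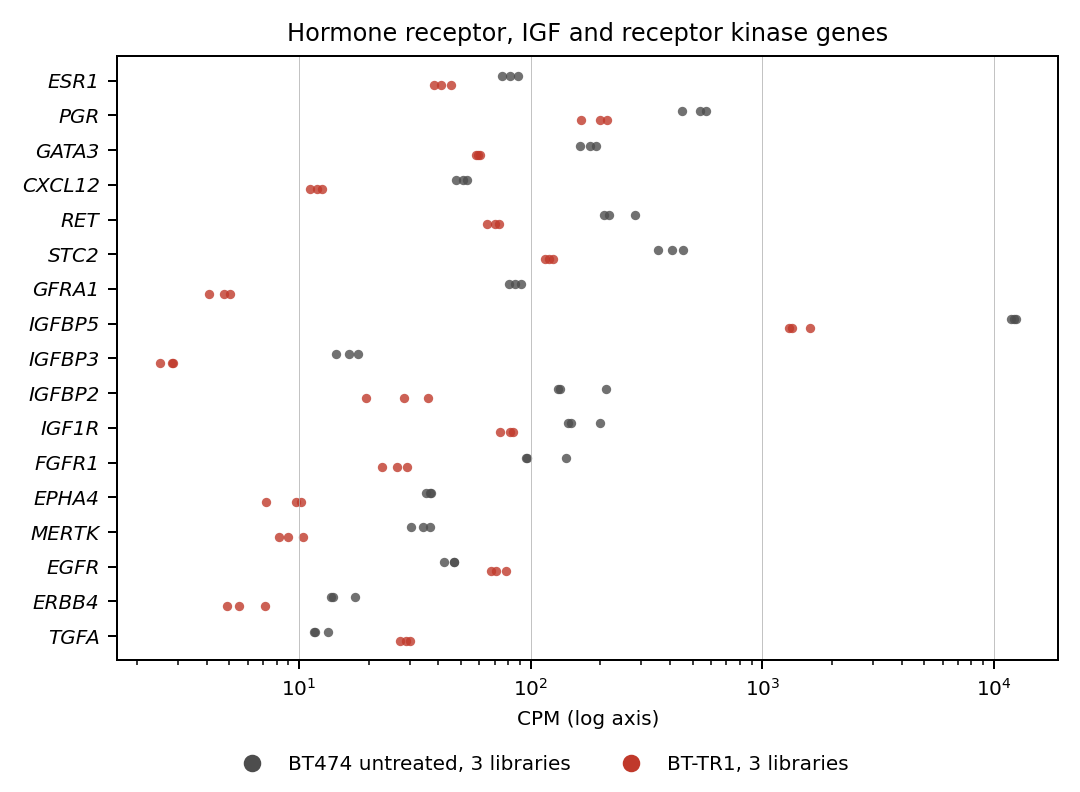
CPM on a log axis of hormone receptor, IGF and receptor kinase genes named in the text. Each point is 1 library, grey for BT474 and red for BT-TR1. All but EGFR and TGFA lie lower in the BT-TR1 libraries. The groups do not overlap for any gene drawn, as was common among genes that passed.

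Core genes of PI3-kinase and AKT signalling rose in 6 of 19 (31.6%) and fell in 2 (10.5%). PIK3CA, the catalytic subunit, stood at 16.5, 22.3 and 21.8 CPM in BT474 and 26.8, 29.7 and 36 CPM in BT-TR1 (0.60 ± 0.19, adjusted p = 0.0138). Its value with the GC correction was 0.35, and its call ended without BT474 replicate 1 (adjusted p = 0.0699), without BT-TR1 replicate 3 (0.0713) and with scaling by library size alone (0.0504). PIK3R1, the regulatory subunit, fell from 63.2, 70.6 and 60.9 CPM to 39.3, 41.1 and 47.6 CPM (-0.61 ± 0.12). DEPTOR, an inhibitor of mTOR, rose from 22.5, 21.4 and 24.4 CPM to 39.6, 37.9 and 39.2 CPM (0.77 ± 0.13), and RPS6KB1, which encodes S6 kinase, rose by 0.67 ± 0.15 (0.40 with the GC correction). Without the correction the falls of the list numbered 6, and 3 when BT-TR1 replicate 3 or BT474 replicate 1 was also left out.

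Genes repressed by PI3-kinase through FOXO factors rose in 9 of 27 (33.3%) and fell in 4 (14.8%). PDK4, which restrains pyruvate dehydrogenase, went from 1.65, 2.12 and 2.13 CPM to 3.34, 4.35 and 5.41 CPM (1.12 ± 0.24), and the sestrin gene SESN3 from 3.74, 5.48 and 5.08 CPM to 9.57, 9.83 and 10.7 CPM (1.07 ± 0.21). IRS2 and YPEL3 (-1.22 ± 0.31, -0.74 with the GC correction) were among those that fell. ERK feedback inhibitors and ETS targets rose in 8 of 17 (47.1%) and fell in 3 (17.6%). SPRY1, a feedback inhibitor of receptor kinase signalling, stood at 6.04, 5.79 and 5.49 CPM in BT474 and 11.5, 11.9 and 10.6 CPM in BT-TR1 (0.97 ± 0.13). The ephrin receptor genes EPHA2 and EPHA4 were 2 of the 3 that fell, and the other, PHLDA1, chosen after its value was seen, changed by -0.59. Immediate early genes fell in 4 of 17 (23.5%) and rose in 2 (11.8%), where genes of the same GC classes fell in 18.6% and rose in 9.35%. Their balance depended on the correction, with 2 rises and 8 falls without it and 7 rises and 4 falls with it alone. Leaving out BT-TR1 replicate 2 or 3 or BT474 replicate 1 brought the 8 falls to 4, and leaving out BT474 replicate 3 brought them to 5. FOS stood at 9.07, 7.34 and 8.94 CPM in BT474 and 1.41, 2.35 and 1.72 CPM in BT-TR1 (-2.21 ± 0.27) and EGR1 at 30, 24.7 and 36.5 CPM in BT474 and 8.38, 14.6 and 8.97 CPM in BT-TR1 (-1.51 ± 0.36). ATF3, a stress-induced member, rose from 1.37, 1.45 and 1.77 CPM to 4.08, 3.92 and 4.22 CPM (1.40 ± 0.21).

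DNA replication genes fell in 20 of 40 (50%) and rose in 1 (2.50%). Of 39 mitosis genes, 9 rose (23.1%), near the 22% of all genes of the same GC classes, and none fell, against 10.8%. For the replication genes the shares of the same GC classes were 14.4% for falls and 16.7% for rises. Among the replication genes, MCM5, a subunit of the replicative helicase, stood at 116, 71.4 and 72.7 CPM in BT474 and 35.4, 25.8 and 19.3 CPM in BT-TR1 (-1.68 ± 0.28). UHRF1, which couples DNA methylation to replication, stood at 34.8, 25.9 and 23.2 CPM in BT474 and 9.64, 9.14 and 8.18 CPM in BT-TR1 (-1.63 ± 0.24). CDT1 and POLD1, a licensing factor and a polymerase subunit, changed by -1.71 ± 0.34 and -1.88 ± 0.43, or -0.46 and -0.63 with the GC correction. The mitotic kinase gene AURKA stood at 193, 207 and 239 CPM in BT474 and 376, 375 and 434 CPM in BT-TR1 (0.89 ± 0.11). PTTG1, which encodes securin, stood at 12.6, 12.2 and 15.9 CPM in BT474 and 24.6, 22.2 and 27.2 CPM in BT-TR1 (0.86 ± 0.13). CCNA2, or cyclin A2, rose by 0.68 ± 0.14. Without the GC correction, 9 mitosis genes were called higher, and their number was 26 with the replicate block, 20 without BT-TR1 replicate 1 and 18 without BT474 replicate 2. MKI67, the proliferation marker, overlapped between the groups at 104, 167 and 161 CPM in BT474 and 152, 237 and 192 CPM in BT-TR1 and did not pass (0.42 ± 0.21, adjusted p = 0.103), but did with the block (0.43, adjusted p = 0.000692, and 0.000542 with the GC correction added), with no filter (0.40, 0.0296), with replicates 2 and 3 alone (0.37, 0.0136) and without BT-TR1 replicate 1 (0.61, 0.0342).

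Of 19 G1 regulators 2 rose (10.5%) and 4 fell (21.1%). CDK6, a partner of D cyclins, rose from 6.81, 7.24 and 6.76 CPM to 12.2, 15 and 19 CPM (1.14 ± 0.19). E2F2 changed by -0.91 ± 0.13 and E2F1 by -1.25 ± 0.21, or -0.42 and -0.28 with the GC correction. CCND1, the cyclin D1 gene, stood at 330.1, 275 and 272 CPM in BT474 and 268, 306 and 304 CPM in BT-TR1, with overlapping groups (0.00 ± 0.10, adjusted p = 0.997). Of p53 targets, 6 of 23 rose (26.1%) and 2 fell (8.70%), against 7 falls without the GC correction. Those 7 were 1 without BT474 replicate 1, and 2 when BT-TR1 replicate 2 or 3 was left out. BTG2, an antiproliferative gene, stood at 31.5, 33.1 and 37.8 CPM in BT474 and 88.6, 91 and 90.5 CPM in BT-TR1 (1.40 ± 0.11), and ZMAT3 at 8.30, 7.86 and 8.53 CPM in BT474 and 13, 17.1 and 18.9 CPM in BT-TR1 (0.98 ± 0.15). Of the BCL2 family, 6 of 19 rose (31.6%) and 2 fell (10.5%), against 6 falls without the correction. BCL2, which protects from cell death and is an estrogen receptor target, fell from 35.2, 54.5 and 49.6 CPM to 14.6, 18.5 and 20.1 CPM (-1.40 ± 0.18). BNIP3 and BNIP3L, which mark mitochondria for removal, rose from 11.6, 10.1 and 13.6 CPM to 31, 21.8 and 25.7 CPM (1.15 ± 0.16) and by 1.02 ± 0.17.

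Heat shock genes rose in 11 of 14 (78.6%), and none fell in both fits. The mitochondrial chaperonin gene HSPD1 stood at 344, 471 and 469.8 CPM in BT474 and 730.4, 792 and 882 CPM in BT-TR1 (0.90 ± 0.13), and the HSP70 partner gene DNAJA1 at 157, 220.0 and 238 CPM in BT474 and 331, 374 and 443 CPM in BT-TR1 (0.90 ± 0.17). DNAJB4, of the same co-chaperone family, rose by 1.15 ± 0.26. The list's median change was 0.68, and 0.60 with the GC correction. Chaperones of the endoplasmic reticulum went the other way, with 5 of 18 lower (27.8%) and 1 higher (5.56%). PDIA4, a protein disulfide isomerase, stood at 372, 404 and 375 CPM in BT474 and 198, 215 and 169.6 CPM in BT-TR1 (-0.98 ± 0.12), and CALR, calreticulin, at 1300.5, 1568 and 1155 CPM in BT474 and 696, 921 and 829.6 CPM in BT-TR1 (-0.72 ± 0.15). CRELD2 changed by -1.41 ± 0.30. Hypoxia and VEGF genes rose in 10 of 19 (52.6%) and fell in 1 (5.26%). EPAS1, which encodes HIF2 alpha, stood at 6.37, 6.21 and 6.90 CPM in BT474 and 24.4, 25.4 and 27.8 CPM in BT-TR1 (1.99 ± 0.10). The prolyl hydroxylase gene EGLN3 stood at 43.7, 46.3 and 45.9 CPM in BT474 and 99.5, 101 and 114 CPM in BT-TR1 (1.21 ± 0.08), and NDRG1 at 41, 29.5 and 39.7 CPM in BT474 and 133, 78 and 78.7 CPM in BT-TR1 (1.40 ± 0.22). LOX, the collagen crosslinking oxidase, rose by 2.20 ± 0.25. The 1 gene that fell was SLC2A1, the glucose transporter GLUT1, from 263, 166 and 177 CPM to 109.5, 84 and 79.2 CPM (-1.15 ± 0.21).

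Glycolysis and glucose uptake genes rose in 5 of 26 (19.2%) and fell in 3 (11.5%), shares near those of all genes. LDHA, lactate dehydrogenase, stood at 372, 342 and 416 CPM in BT474 and 808, 697 and 816 CPM in BT-TR1 (1.04 ± 0.11) and HK2, a hexokinase, at 84.1, 88.2 and 97.5 CPM in BT474 and 196, 193 and 202 CPM in BT-TR1 (1.13 ± 0.10). With the GC correction alone, 12 of the 26 rose. Cholesterol synthesis genes fell in 9 of 25 (36%) and rose in 2 (8.0%). CYP51A1, a sterol demethylase, went from 12.5, 10.6 and 5.08 CPM to 2.00, 1.13 and 0.528 CPM (-2.83 ± 0.57), and LSS, lanosterol synthase, from 9.72, 6.67 and 5.76 CPM to 3.04, 2.00 and 1.45 CPM (-1.71 ± 0.30). STARD4, a cholesterol carrier, rose from 12.6, 18.5 and 12.2 CPM to 36.3, 43.9 and 49.5 CPM (1.58 ± 0.17). Without the correction the cholesterol falls numbered 12, and 7 without BT474 replicate 1. Fatty acid synthesis genes split, with 5 of 20 higher and 5 lower (25% each). ACSL4, which activates polyunsaturated fatty acids, rose from 0.549, 0.931 and 0.499 CPM to 3.86, 4.52 and 4.36 CPM (2.68 ± 0.32), and ME1, malic enzyme, from 8.52, 11.6 and 9.30 CPM to 31.1, 30.3 and 35.6 CPM (1.72 ± 0.15). SREBF1, the lipogenic transcription factor gene, changed by -1.70 ± 0.39, or -0.66 with the correction, and shares exon sequence with RAI1.

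Among NRF2 targets, 5 of 17 rose (29.4%) and 2 fell (11.8%), and of the aryl hydrocarbon receptor pathway 4 of 10 rose (40%) and 2 fell (20%). NQO1, a quinone reductase on both lists, stood at 114, 123 and 137 CPM in BT474 and 279, 284 and 307 CPM in BT-TR1 (1.22 ± 0.10). CYP1A1, a cytochrome P450 of that receptor, stood at 5.77, 5.48 and 4.72 CPM in BT474 and 20, 19.4 and 16.9 CPM in BT-TR1 (1.82 ± 0.18). When not corrected for GC, 5 NRF2 targets fell, which became 1 when BT-TR1 replicate 3 or BT474 replicate 1 was left out, and 2 without BT-TR1 replicate 2. ABC transporter genes fell in 7 of 24 (29.2%) and rose in 2 (8.33%). ABCA2 changed by -2.19 ± 0.45, or -1.07 with the GC correction, and ABCC1, an exporter of drugs, fell from 4.01, 3.93 and 3.45 CPM to 1.63, 1.91 and 1.06 CPM (-1.26 ± 0.31). The ABC transporter falls without the correction numbered 11, 7 without BT-TR1 replicate 3 and 6 without BT474 replicate 1.

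Collagen, laminin and integrin genes fell in 9 of 24 (37.5%) and rose in 3 (12.5%). COL4A5, a basement membrane collagen, stood at 8.30, 9.31 and 8.35 CPM in BT474 and 1.11, 1.48 and 1.72 CPM in BT-TR1 (-2.62 ± 0.20). LAMA3, a chain of laminin 332, went the other way, from 0.659, 0.724 and 0.454 CPM to 4.45, 3.74 and 3.17 CPM (2.64 ± 0.25). COL18A1 and COL6A1 changed by -3.12 ± 0.47 and -2.52 ± 0.37, or -1.69 and -1.46 with the GC correction, and COL18A1 shares exon sequence with SLC19A1. Mesenchymal genes split, with 3 of 12 higher and 3 lower (25% each). CDH2 was the largest fall, and TGFBI, a secreted matrix protein, the largest rise, from 2.80, 2.74 and 2.59 CPM to 18.9, 16.6 and 15.7 CPM (2.66 ± 0.18). Epithelial junction genes fell in 3 of 23 (13%) and rose in 1 (4.35%), where genes of the same GC classes fell in 16.6% and rose in 12.6%. The gene that rose was ESRP1, an epithelial splicing regulator (0.58 ± 0.09). DSG2, a desmosomal cadherin, was among the falls (-0.64 ± 0.12). Uncorrected, 8 junction genes fell, and 3 did when BT-TR1 replicate 3 or BT474 replicate 1 was left out, and 5 without BT-TR1 replicate 2. With the correction alone 4 fell and 4 rose.

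Notch pathway genes fell in 7 of 16 (43.8%) and rose in 2 (12.5%), where genes of the same GC classes fell in 18.9% and rose in 10.4%. The list's median change was -0.98, and -0.15 with the GC correction. The ligand gene JAG1 stood at 9.23, 7.65 and 6.99 CPM in BT474 and 1.71, 2.18 and 2.11 CPM in BT-TR1 (-2.0 ± 0.21). NOTCH1 and the ligand gene JAG2 changed by -2.41 ± 0.37 and -2.23 ± 0.45, or -1.37 and -1.06 with the GC correction. WNT pathway genes fell in 7 of 23 (30.4%) and rose in 2 (8.70%). LEF1, a transcription factor of the pathway, fell from 5.05, 5.95 and 8.03 CPM to 0.890, 1.04 and 1.19 CPM (-2.63 ± 0.25), and LRP5, a WNT co-receptor, changed by -1.98 ± 0.42 (-0.96 with the correction). The inhibitor DKK1, given above, was 1 of the 2 that rose, and the other, TCF7L2, chosen after its value was seen, changed by 0.35. Of 22 TGF-beta and BMP genes 4 fell (18.2%) and 2 rose (9.09%). The ligand gene BMP4 fell from 11, 8.64 and 8.39 CPM to 2.60, 3.39 and 2.38 CPM (-1.73 ± 0.22), and ID3, a target of BMP signals, from 15.8, 8.33 and 10.2 CPM to 4.52, 2.96 and 2.64 CPM (-1.72 ± 0.25).

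Genes associated with breast stem cells rose in 6 of 11 (54.5%) and fell in 2 (18.2%). ALDH1A1, a retinaldehyde dehydrogenase, stood at 4.45, 4.55 and 4.22 CPM in BT474 and 16.2, 15.5 and 16.4 CPM in BT-TR1 (1.86 ± 0.15). ALDH1A3, of the same family, stood at 1.04, 1.09 and 0.817 CPM in BT474 and 4.08, 5.48 and 4.75 CPM in BT-TR1 (2.28 ± 0.19). SOX9, a transcription factor of progenitor cells, stood at 27.5, 32.1 and 31.7 CPM in BT474 and 52.7, 73.1 and 74.8 CPM in BT-TR1 (1.13 ± 0.12). For all 3 the lowest BT-TR1 library was above the highest parental one. Of the 11 genes, 4 were also higher than in BT-TR2 in both fits, where 3.59% of all tested genes were. The 2 falls were 0 when BT-TR1 replicate 1 or BT474 replicate 2 was left out, and 1 without BT-TR1 replicate 3.

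Interferon-stimulated genes rose in 9 of 30 (30%) and fell in 4 (13.3%), and 3 of the genes with the largest rises were at very low levels. OAS1, an antiviral enzyme, went from 0.220, 0.207 and 0.318 CPM to 0.816, 1.31 and 1.06 CPM, OAS2 from 0.0549, 0.0517 and 0.136 CPM to 0.519, 0.435 and 0.924 CPM and IFIT1 from 0.440, 0.414 and 0.136 CPM to 0.742, 1.13 and 1.58 CPM. Thinned to the depth of the shallowest library, 5 of the list rose. Without the GC correction 5 fell, which were 3 without BT-TR1 replicate 1 or 2, and 2 when the third BT-TR1 library was left out. Of 14 tested ligands of natural killer cell receptors and immune checkpoints, 4 fell (28.6%) and none rose. NCR3LG1, or B7-H6, stood at 28.3, 34.9 and 26.5 CPM in BT474 and 13.6, 16.3 and 16.9 CPM in BT-TR1 (-0.94 ± 0.18), and CD276 changed by -1.44 ± 0.26 (-0.60 with the GC correction). MHC class I and peptide loading genes fell in 3 of 11 (27.3%), among them TAPBPL (-1.29 ± 0.30, -0.78 with the correction).

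Cytosolic ribosomal protein genes rose in 10 of 75 and fell in 10 (13.3% each). Uncorrected, 13 ribosomal genes rose and 18 fell, and with the GC correction alone 17 rose and 11 fell. The 18 falls were 11 without BT-TR1 replicate 2, 7 without BT-TR1 replicate 3 and 8 without BT474 replicate 1. Nuclear genes of the respiratory chain rose in 11 of 49 (22.4%) and fell in 5 (10.2%), with 8 falls when not corrected, and 3 when BT-TR1 replicate 3 or BT474 replicate 1 was also left out. Those of the mitochondrial genome passed in neither direction in both fits. Of 17 replication-dependent histone genes, 1 rose and 1 fell (5.88% each).

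**Figure D4:**
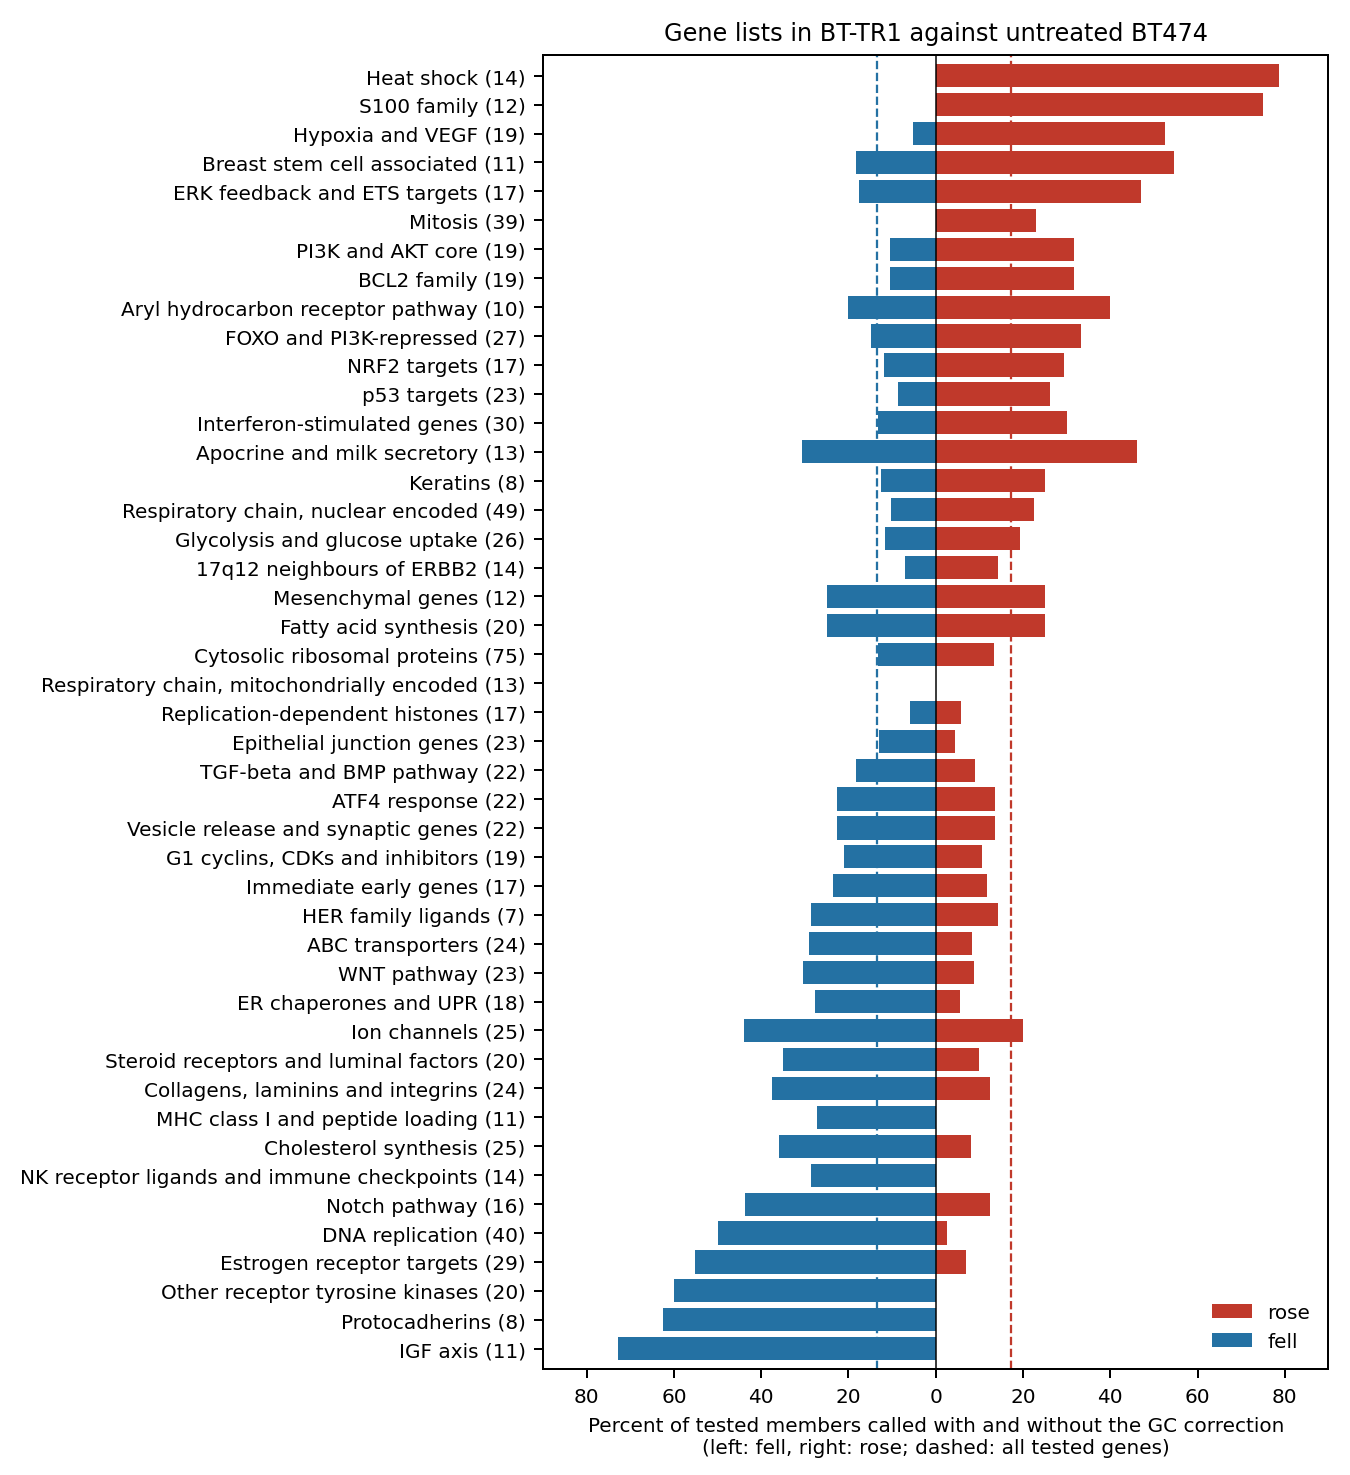
Percent of tested members of each gene list that rose (red, right) or fell (blue, left) in BT-TR1 against BT474 with and without the GC correction, with the number tested in brackets, for the 45 lists with at least 7 tested members. Dashed lines mark the same shares over all tested genes, 17.3% and 13.5%. Heat shock and S100 genes lie at the top and the IGF axis, protocadherins and other receptor tyrosine kinases at the bottom.

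BT-TR1 was next set against BT-TR2, the other trastuzumab-resistant pool, in the same fit. This contrast is also the test of whether the change from BT474 differed between the 2 pools, since both share the BT474 libraries. Without the GC correction 3129 genes passed (17.7%), of which 1428 (8.09%) were higher in BT-TR1 and 1701 (9.64%) lower, and in both fits 633 (3.59%) and 548 (3.1%), together 1181 (6.69%). These counts leaned on single libraries: without BT-TR2 replicate 1 they were 307 and 227, without BT-TR1 replicate 2 they were 464 and 369 and without BT-TR1 replicate 3 they were 393 and 282. Across genes, the difference between the pools had r = -0.629 with GC content before the correction and -0.031 after it. With the correction alone 56.1% of calls were higher in BT-TR1, against 45.6% without it and 19.6% with scaling by library size alone.

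By the naming rule, the genes most above BT-TR2 in BT-TR1 were HPGD, FAM101A, KRT4, AGR3 and DKK1. HPGD, with 10.9, 9.05 and 14 CPM in BT-TR1, stood at 1.62, 1.24 and 1.03 CPM in BT-TR2 (3.11 ± 0.28, adjusted p = 1.01e-05). DKK1 stood at 50, 36.4 and 40 CPM in BT-TR2 (1.66 ± 0.14), and KRT4 at 3.06, 2.63 and 3.01 CPM (1.91 ± 0.25). In each case the 3 BT-TR1 libraries were above the 3 of BT-TR2, which the naming rule required. AGR3, a secreted disulfide isomerase of estrogen receptor-positive cells, stood at 10.2, 10.4 and 13.5 CPM in BT-TR1 and 3.24, 3.76 and 3.08 CPM in BT-TR2 (1.74 ± 0.21), although it was also lower in BT-TR1 than in BT474 (-0.62 ± 0.19). That fall from BT474 ended without BT-TR1 replicate 1 (adjusted p = 0.0694) or 2 (0.0679), without BT474 replicate 2 (0.134) and with only the groups compared (0.0516). Those most below BT-TR2 were CALML5, DGCR6L, FBXW5, POLR2L and FIBCD1. POLR2L shares exon sequence with CD151 on the other strand (202.5 CPM in BT474 and 54.6 CPM in BT-TR1). CALML5, a calmodulin-like protein of keratinocytes, stood at 2.52, 2.26 and 0.528 CPM in BT-TR1 and 26.6, 10.5 and 8.14 CPM in BT-TR2 (-2.99 ± 0.59, -1.93 with the GC correction). FBXW5, POLR2L and FIBCD1 lost the call without BT-TR2 replicate 1 (adjusted p = 0.116, 0.134 and 0.164), without BT-TR1 replicate 2 (0.0672, 0.0603 and 0.0892) and without BT-TR1 replicate 3 (0.0852, 0.0824 and 0.0991).

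Of the 30 genes with the largest changes from BT474, the change differed between the pools in both fits for 22, where 6.69% of all tested genes did. These 2 shares are of unlike genes, since the 30 also had to average at least 5 CPM and pass against BT474 without overlap. The 30 were chosen by their change in the same BT-TR1 libraries, which favours a larger change in BT-TR1 than in BT-TR2. The IGF axis, the S100 family and the heat shock list had 0, 0 and 0 members higher than in BT-TR2 and 1, 0 and 1 lower. Of 29 estrogen receptor targets 2 were higher and 5 lower than in BT-TR2, and of 40 DNA replication genes none was higher and 7 were lower. Over all tested genes 3.59% were higher and 3.1% lower in both fits, and calls against BT-TR2 leaned on single libraries, as given above. Among the falls from BT474, SYT1 stood at 3.84, 3.81 and 4.62 CPM in BT-TR2, above the 1.04, 1.39 and 1.06 CPM of BT-TR1 (-1.80 ± 0.20, adjusted p = 6.38e-05). Among the rises, SCGB2A2 stood at 1666, 1352 and 1467 CPM in BT-TR2 and was lower in BT-TR1 (-0.55 ± 0.13). PLA2G2A stood at 83.4, 66.3 and 71.6 CPM in BT-TR2 and was higher in BT-TR1 (1.18 ± 0.14).

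To find genes that set BT-TR1 apart, those that differed in the same direction from BT474, BT-TR2, BT-TPR1 and BT-TPR2 were taken. The 4 contrasts share the BT-TR1 libraries. Higher in all 4 were 471 genes (2.67%), 227 of them in both fits (1.29%), and lower in all 4 were 657 (3.72%), 181 of them in both fits (1.03%). The first count was 145 without BT-TR1 replicate 3, 177 without replicate 2 and 775 without replicate 1, and the second 105, 169 and 1085. LRRC31, a leucine-rich repeat gene, had the largest smallest difference. It stood at 6.58 ± 1.05 CPM in BT-TR1 (mean ± SD, n = 3), 0.340 ± 0.0594 in BT474, 0.895 ± 0.186 in BT-TR2, 0.505 ± 0.164 in BT-TPR1 and 0.577 ± 0.354 in BT-TPR2. DKK1 stood at 134 ± 4.79, 14.4 ± 1.78, 42.1 ± 7.02, 14.3 ± 0.0865 and 7.82 ± 0.813 CPM in the same order. The BT-TR1 mean was the highest of the 5. SERPINB5, which encodes maspin, stood at 5.52 ± 0.913, 0.193 ± 0.128, 1.12 ± 0.300, 2.41 ± 0.531 and 1.57 ± 0.217 CPM. For HPGD the values were 11.3 ± 2.50, 1.35 ± 0.358, 1.29 ± 0.301, 2.84 ± 1.09 and 1.90 ± 0.310 CPM. KRT4 and FAM101A completed the 6 named genes, at 10.8 ± 2.71 CPM and 27.6 ± 6.60 CPM in BT-TR1 and below 10 CPM in each other group on average.

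**Figure D5:**
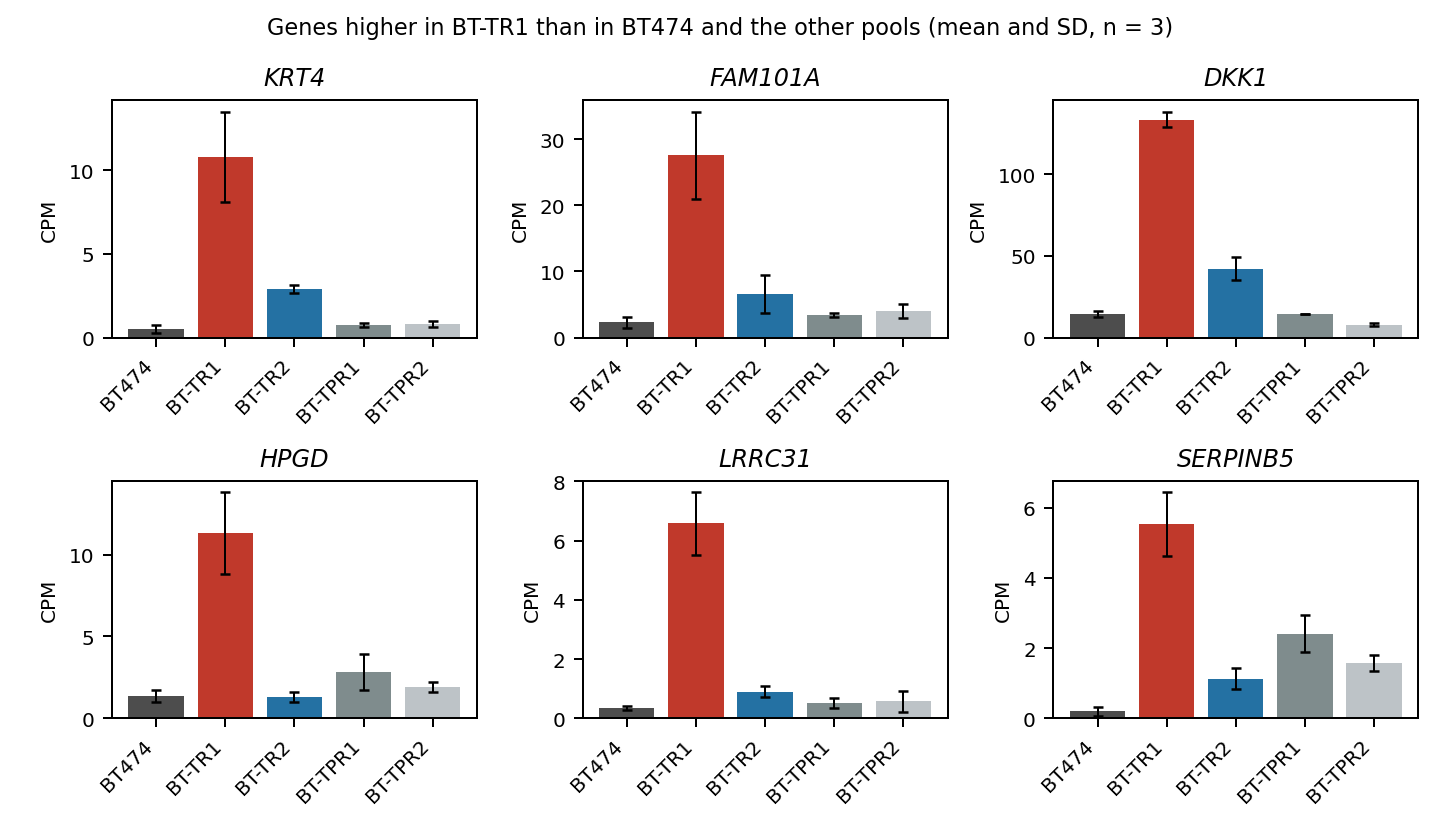
Mean CPM of the 6 named genes that were higher in BT-TR1 than in BT474 and the 3 other pools. Bars are means and whiskers SDs of 3 libraries, and each panel has its own axis from 0. The BT-TR1 bar is the tallest in every panel, which the selection required.

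Among genes lower in BT-TR1 than in all 4 other groups, FTH1, the ferritin heavy chain that stores iron, kept its value with the GC correction. It stood at 15.4 ± 4.29 CPM in BT-TR1, 59.7 ± 15.8 in BT474, 51.4 ± 28.4 in BT-TR2, 61.8 ± 31.3 in BT-TPR1 and 55 ± 22.4 in BT-TPR2. The change from BT474 was -1.94 ± 0.39, or -1.87 with the correction. FTH1 has many pseudogenes whose reads could be shared, and its difference from BT-TR2 (-1.72 ± 0.39) ended without BT-TR2 replicate 1 (adjusted p = 0.081), BT-TR1 replicate 2 (0.0532) or BT-TR1 replicate 3 (0.0541). The other 5 named genes shrank with the correction. Against BT474 they were DGCR6L (-1.92 ± 0.35, corrected -0.82), FBXW5 (-2.22 ± 0.47, -0.78), ANO9 (-2.53 ± 0.44, -1.42), RP4-778K6.1 (-1.92 ± 0.39, -1.18) and the homeobox gene IRX4 (-2.58 ± 0.37, -0.88). Apart from DGCR6L, each lost its difference from BT-TR2 without BT-TR2 replicate 1, with adjusted p of 0.116, 0.0994, 0.0666 and 0.0592.

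Along the chromosomes, medians of the corrected change were taken over runs of 25 neighbouring tested genes. Over 16970 runs the median was 0.07, with the 1st and 99th percentiles at -0.43 and 0.43. Described are the 3 runs without shared genes that had the most extreme medians each way. Mostly one-sided counts of genes within them follow from that choice. The highest run lay on chromosome 2 from 41819747 to 46583121 (hg38), between LDHAP3 and RHOQ, at 0.60 (0.63 uncorrected). In it 14 of 25 genes rose and none fell, and EPAS1 is among them. Another on chromosome 1 from 151710433 to 153632039, at 0.54, holds S100A8, S100A9, S100A4 and other S100 genes, so its level is not separate from the S100 list. The third, on chromosome 14 from 24305734 to 31457510, stood at 0.54. The lowest run lay on chromosome 11 from 319669 to 915058, at -0.80, where 14 genes fell and none rose. It is rich in GC, with a median of 62.6%, and stood at -1.64 uncorrected. Runs on chromosome 1 from 1280436 to 1724324 (-0.65) and chromosome 21 from 44497892 to 46286297 (-0.61) followed, at -1.53 and -1.05 uncorrected. The same 6 runs stood at 0.23, 0.36, 0.25, -0.26, -0.59 and -0.52 in BT-TR2 against BT474, a comparison that shares the BT474 libraries. In BT-TPR1 against BT474 they stood at 0.29, 0.41, -0.23, -0.05, -0.26 and -0.15, and in BT-TPR2 at 0.36, 0.35, -0.19, -0.24, -0.37 and -0.51. The chromosome 14 run was thus below 0 in both of these pools and above 0 in BT-TR1 and BT-TR2. These medians are descriptions without a test.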

How the data were processed

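Total RNA of 21 libraries, 3 in each of 7 groups, was sequenced. Per the submitters' processing notes, the authors aligned reads with Bowtie2 to hg38 and counted them with featureCounts, and the deposited read counts per gene were not normalized. A deposited table of variance-stabilized values, on a log2-like scale, was used only as an alternative; DESeq2 is named in the same notes. Versions and strandedness are not given in the sources used here.

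From the counts, genes were filtered with filterByExpr (minimum count 10, minimum total 15), scaled by TMM and tested with edgeR 4.0.16 (R 4.3.3), by the quasi-likelihood test on all 21 libraries with group as the only term, in which the libraries of antibody-treated BT474 entered only the shared estimate of spread, 14 residual degrees of freedom and Benjamini-Hochberg adjustment over 17650 genes at 0.05. All adjusted p are from this test unless another is named. For the GC correction, each library's deviation from the gene mean was fitted with a natural spline of 5 degrees of freedom in GC content of the longest GENCODE transcript, centred to a median shift of 0. The procedure was tested on simulated data, with and without a GC-linked shift. That shift was the spline fitted to these libraries, so the simulation cannot show how the correction handles shifts of another form. Every simulated gene had the same spread between libraries, unlike real genes, and the outcome is not given here. Alternatives used DESeq2 1.42.0, limma 3.58.1, other filters and scalings, a replicate block, thinning to 7939270 counts and leaving out libraries. Ratios of counts, their exact 95% intervals and fold bounds use raw library totals, other levels TMM-scaled CPM. These intervals and the floor of 3 counts cover counting error only.

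Deviations from group means were correlated between same-numbered BT-TR1 and BT474 libraries (r = 0.55, 0.135 and 0.312 for numbers 1, 2 and 3). BT-TR1 replicate 3 also had r = 0.326 with BT474 replicate 2, so pairing by number was uneven. The labels do not say what a number shares. Replicates differed by more than sampling noise. Named were the 15 largest changes each way against BT474 and the 5 each way against BT-TR2, among genes that passed with and without the GC correction, averaged at least 5 CPM over the 6 libraries and did not overlap between groups. Also named were 6 genes each way apart from all 4 other groups (passing in both fits, at least 5 CPM in the higher group), up to 4 passing members per list with the largest change, at any level, and 12 genes taken whatever their change, 1 of which is not reported here. The members and lists were chosen with earlier results of these data known.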

Additional observations from a re-analysis of the deposited data

Results flagged for a closer look

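For 22 of the 30 genes with the largest changes from BT474, the change differed between BT-TR1 and BT-TR2, tested as the difference itself in edgeR's quasi-likelihood fit. Over all tested genes 6.69% differed between these pools with and without the GC correction. That share is of unlike genes, since the 30 had to average at least 5 CPM and pass against BT474 without overlap. The 30 were chosen by their change in the same BT-TR1 libraries, which favours a larger change in BT-TR1 than in BT-TR2. Values are the log2 change in BT-TR1 minus that in BT-TR2, ± SE, and 10 of the genes had risen in BT-TR1 and 12 had fallen. Among the genes that rose, the rise was larger in BT-TR1 for HPGD (3.11 ± 0.28, adjusted p = 1.01e-05), FAM101A (2.08 ± 0.28, 0.000387), KRT4 (1.91 ± 0.25, 0.000226), DKK1 (1.66 ± 0.14, 4.9e-06) and PLA2G2A (1.18 ± 0.14, 0.000125). It was also larger for LINC01468 (1.17 ± 0.23, adjusted p = 0.00419), NCMAP (1.13 ± 0.26, 0.00897) and SLPI (0.92 ± 0.20, 0.0081). The secretoglobin genes SCGB2A2 (-0.55 ± 0.13, adjusted p = 0.0119) and SCGB1D2 (-0.80 ± 0.16, 0.00542) rose less in BT-TR1 than in BT-TR2.

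Among the genes that fell, the level was lower in BT-TR1 for all 12, the direction that the choice of genes favours. The adhesion genes were PCDH7 (-1.47 ± 0.39, adjusted p = 0.0173), PCDH19 (-1.35 ± 0.21, 0.00105), NLGN4X (-0.98 ± 0.17, 0.00189), CADM2 (-0.85 ± 0.27, 0.0406), CNTNAP2 (-1.42 ± 0.30, 0.00613), IGSF21 (-2.10 ± 0.46, 0.00767) and CDH2 (-0.78 ± 0.22, 0.0261). The others were SYT1 (-1.80 ± 0.20, adjusted p = 6.38e-05), SERPINI1 (-1.14 ± 0.23, 0.0055), P2RY10 (-1.06 ± 0.26, 0.0129), GFRA1 (-0.66 ± 0.15, 0.00843) and ADAMTS1 (-0.83 ± 0.18, 0.00665).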

How the results depend on the processing

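Genes called in BT-TR1 against BT474 stayed within 1.5 times of 3752 rises and 3941 falls under each alternative other than leaving out 1 library of the 2 groups compared, where they ran from 2788 to 4011 and from 2560 to 3873. With the replicate block they were 5061 and 5084. Against BT-TR2, the 1428 higher and 1701 lower genes became 3541 and 4014 with the replicate block, 933 and 731 with the GC correction, 636 and 638 with only the groups compared and 2405 and 2902 with replicates 2 and 3 alone. Scaling by library size alone gave 566 higher, and no filter gave 2659 lower. Leaving out 1 library gave 307 to 2109 and 227 to 2298. Same-numbered BT-TR1 and BT-TR2 libraries had correlations of 0.53, 0.073 and 0.35 for numbers 1, 2 and 3, and BT-TR1 replicate 3 had 0.289 with BT-TR2 replicate 2. Pairing by number was thus uneven here, as it was between BT-TR1 and BT474. The 471 genes higher in BT-TR1 than in all 4 groups became 161 with library size alone, 1537 with the block, 819 with block and GC correction and 910 with replicates 2 and 3 alone, and 145 to 775 without 1 library. The 657 lower genes became 1462 with no filter, 1047 with library size alone, 2141 with the block, 229 with the GC correction and 1422 with replicates 2 and 3 alone, and 105 to 1085 without 1 library. Over all tested genes, 81 passed in opposite directions against BT474 without and with the GC correction, KRT19 and SPDEF among them. Of the genes taken by the naming rules, the direction against BT474 reversed with the GC correction for CALML5 (-1.44 to 0.04), FIBCD1 (-0.55 to 0.92, and 0.89 with the block) and COL1A1 (-0.64 to 0.22, and 0.21 with the block). CCND1, at 0.00, moved to -0.02 with no filter and with only the groups compared, -0.00 with the block, -0.03 when thinned and -0.05 to 0.12 without 1 library (-0.00 without BT-TR1 replicate 3, and -0.01 without BT-TR1 replicate 2 or BT474 replicate 2). The causes of these shifts were not tested. The shallow BT-TR1 libraries limit low genes: 3 counts are 0.396 CPM on the TMM scale in BT-TR1 replicate 3, and 0.136 to 0.165 CPM in BT474.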
